A study of Mus musculus with 12 samples.

Results

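Livers of mice bred to lack FBXL5 in dendritic cells were compared with livers of control mice, all taken 6 h after acetaminophen. The libraries were chosen by their labels: 3 of genotype Cd11c-Cre/Fbxl5F/F, written FBXL5ΔDC, and 3 of genotype Fbxl5F/F, the controls, together 6 of the 12 libraries of the series. The other 6 libraries are untreated livers (0 h) of the same genotypes, 3 each, and serve here as the background level. All mice, controls included, carry floxed Fbxl5, and only the FBXL5ΔDC mice carry Cre recombinase under the Cd11c promoter, which is active in dendritic cells and, more weakly, in some other immune cells such as tissue macrophages. The mice were males 7 to 10 weeks old kept free of specific pathogens. By the protocol, mice fasted for 16 h, received acetaminophen in PBS into the peritoneum at 300 or 500 mg/kg and were fed at once. The labels do not say which dose these mice received, nor whether the untreated mice fasted. RNA came from whole liver, and no label says whether the replicates were separate litters or experiments, so every p-value measures only the spread between these samples. In bulk tissue, fewer cells of a type and less RNA per cell cannot be told apart.

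Acetaminophen is harmful through a reactive quinone imine that cytochromes P450, above all CYP2E1, make in the hepatocytes around the central veins. The quinone imine uses up glutathione and binds proteins, many of them mitochondrial, and hepatocytes answer with antioxidant, heat shock and endoplasmic reticulum stress programs before they die or recover. FBXL5 is the substrate receptor of a ubiquitin ligase that removes the iron regulatory protein IRP2, so that cells without it behave as if short of iron and take up more. The title of the series names iron overload of dendritic cells and acetaminophen toxicity, and the comparison asks what differs in the liver when the deletion is confined to Cd11c-expressing cells.

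Fbxl5 itself stood at 13.3, 19.2 and 15 CPM in control replicates 1, 2 and 3 and at 21.4, 21.8 and 12.5 CPM in FBXL5ΔDC replicates 1, 2 and 3, and the groups overlapped (log2 0.23, SE 0.27, edgeR adjusted p = 0.672). Itgax, which encodes CD11c, stayed under 1 CPM in every library, at 0.4, 0.581 and 0.135 CPM in the controls and 0.584, 0.509 and 0.149 CPM in FBXL5ΔDC. Values below are in CPM (counts relative to the TMM-scaled library total) and keep this order: control replicates 1, 2 and 3, then FBXL5ΔDC replicates 1, 2 and 3. With so little dendritic cell RNA, the Fbxl5 level of whole liver does not check a deletion in these cells. Each library held 67173096 to 71568904 counts at 6 h, and Alb, the main plasma protein of hepatocytes, led at 47857, 55635 and 92161 CPM in controls and 102265, 111567 and 80392 CPM in FBXL5ΔDC.

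Control replicate 3 stood apart from the other controls, and this bears on everything that follows. Its root mean square log2 difference was 1.27 to control replicate 1 and 1.29 to control replicate 2, but 1.06 to 1.14 to the FBXL5ΔDC libraries; control replicates 1 and 2 differed by 0.959 and the FBXL5ΔDC libraries among themselves by 1.02 to 1.14. When a library was left out and genes were called from the other libraries, its own place on those genes could be read independently, with 0 at the mean of the other controls and 1 at the mean of the other FBXL5ΔDC libraries. Control replicate 3 lay at a median of 0.840 over 4236 genes and was nearer to FBXL5ΔDC at 78.2% of them. Control replicate 1 was nearer to FBXL5ΔDC at 4% of 250 genes and control replicate 2 at 7.59% of 303 genes. The FBXL5ΔDC replicates were nearer to their own group at 85.5%, 87.8% and 75.4% of 406, 296 and 606 genes. These shares rest on different genes. In every fit but its own, control replicate 3 counted among the controls, so its 78.2% is not on the same scale as the others. Whether control replicate 3 differs through the mouse, the dose, the handling or an exchange of samples was not tested.

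**Figure D1:**
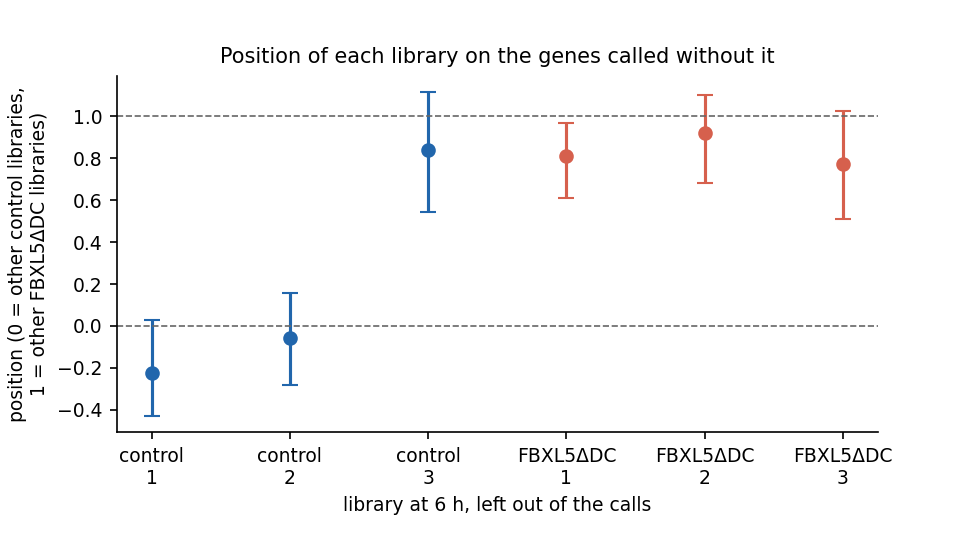
Position of each library 6 h after acetaminophen on the genes called without it, on a scale from 0 (mean of the other control libraries) to 1 (mean of the other FBXL5ΔDC libraries); points are medians over genes and bars run from the lower to the upper quartile. Control replicate 3 sits at 0.840, among the FBXL5ΔDC libraries (0.774 to 0.923) and away from control replicates 1 and 2 (−0.22 and −0.06). Each position rests on a different set of genes.

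With all 6 libraries, 238 genes were higher and 793 lower in FBXL5ΔDC than in control livers among 17585 tested (5.86% called; 1.35% higher and 4.51% lower; edgeR quasi-likelihood test, Benjamini-Hochberg adjusted p below 0.05). Of these, 126 higher and 451 lower genes differed by at least 2-fold. The 3 FBXL5ΔDC libraries lay all above or all below the 3 controls for 3687 genes (21%), 1713 above (9.74%) and 1974 below (11.2%). Each library weighed on the count. Without control replicate 3, 1873 genes were higher and 2376 lower (10.1% and 12.9% of 18464 tested, 23% together). In that fit 1029 of the 1031 genes called with all libraries were called again. The 10.1% and 12.9% are the shares to set beside every count below that leaves this library out. For counts with all 6 libraries, those shares are 1.35% higher and 4.51% lower. Without control replicate 1 the counts were 35 and 215, without control replicate 2 they were 49 and 254, and without FBXL5ΔDC replicates 1, 2 and 3 they were 83 and 325, 54 and 242, and 124 and 482. In all 6 of these fits 22 of the higher and 167 of the lower genes stayed called (0.125% and 0.95% of the genes tested). The spread was estimated over the 4 groups together; a fit to the 6 libraries at 6 h alone called 0 genes higher and 6 lower, with 2608 genes at an unadjusted p below 0.05. In the text below, a gene "stayed called" when it passed in each of the 6 fits that leave out 1 library.

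Cytosolic chaperones of the heat shock response were lower in FBXL5ΔDC livers. These proteins refold or hold damaged proteins, and their genes are driven by heat shock factor 1 through the heat shock element. Of 21 members of the list, 16 were lower and 0 higher (median log2 −1.53, against −0.01 over all genes tested), and 17 were lower without control replicate 3. Without control replicates 1 and 2 the lower members were 10 and 9, and without FBXL5ΔDC replicates 1, 2 and 3 they were 9, 8 and 11. All 3 control libraries lay above the 6 untreated ones for 9 members (11.5% over all genes tested), and all 3 FBXL5ΔDC libraries lay below them for 10 (19.2% over all genes tested).

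Dnajb1 (chr8:83608193-83612653 in GRCm38), the HSP40 partner that loads clients onto HSP70, stood at 879.7, 592 and 191 CPM in control replicates 1, 2 and 3 and at 26.5, 20.9 and 11.3 CPM in FBXL5ΔDC replicates 1, 2 and 3 (log2 −4.82, SE 0.62, edgeR adjusted p = 0.00469; stayed called). Control replicate 3 was the lowest control, yet it was far above every FBXL5ΔDC library, and the untreated libraries held 26.1 to 57.5 CPM. Hspa1b, an inducible HSP70, had 2860.2, 1546 and 385 CPM in controls and 11.2, 11.4 and 2.52 CPM in FBXL5ΔDC (log2 −7.58, SE 1.34, edgeR adjusted p = 0.0171). Its near-identical neighbour Hspa1a had 1463, 767 and 168 against 3.61, 5.09 and 0.969 CPM (log2 −7.96, SE 1.41, edgeR adjusted p = 0.017), and reads of the pair cannot be assigned with certainty. For both, the groups did not overlap and the FBXL5ΔDC libraries lay below the lowest untreated library, at 26.3 CPM for Hspa1b and 6.26 CPM for Hspa1a.

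Hspb1, a small heat shock protein that keeps unfolded proteins soluble, had 1279, 794 and 112 CPM in controls and 23.8, 24 and 21.2 CPM in FBXL5ΔDC (log2 −4.98, SE 0.79, edgeR adjusted p = 0.0108). Hsph1, the HSP110 exchange factor of HSP70, had 779.8, 568 and 128 against 33.9, 32 and 24.4 CPM (log2 −4.03, SE 0.65, edgeR adjusted p = 0.0111). In both genes control replicate 3 lay between control replicates 1 and 2 and the FBXL5ΔDC libraries. The HSP90 genes differed less: Hsp90aa1, the inducible form, had 2302, 1475 and 877 against 331, 322 and 251 CPM (log2 −2.36, SE 0.34, edgeR adjusted p = 0.00535). Hsp90ab1, the constitutive form, had 2825, 2342 and 1730.0 against 919.6, 1015 and 787 CPM (log2 −1.34, SE 0.20, edgeR adjusted p = 0.00474). Hspa8, the constitutive HSP70, had 3712, 3017 and 2865 against 1213, 1247 and 917 CPM (log2 −1.51, SE 0.21, edgeR adjusted p = 0.00399). These last 3 genes stayed called, and their FBXL5ΔDC libraries lay within or below the untreated range. Ubb, a ubiquitin gene that stress also induces, belongs to no list and was picked after its values were seen. It had 1127, 829 and 946 against 358, 395 and 345 CPM (log2 −1.40, SE 0.14, edgeR adjusted p = 9.21e-04; stayed called). The 3 controls lay above every untreated library, and the 3 FBXL5ΔDC libraries below every one.

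The heat shock element, searched on both strands as GAA, TTC and GAA with any 2 bases between each, was read in RefSeq promoters of GRCm38.p6 (250 bases before to 50 after the start). It was found in 7 of 24 promoters of the list (29.2%). It was found in 0.458% of the 15068 promoters of all tested genes, in 1.11% of those of genes called lower and in 0 of 224 of those called higher. A pair of windows upstream of the start is shown, with the element in capitals, because both genes carry the same element and only the first was lower; they were picked for their element after their values were seen.
Hspe1, chr1:55088032-55088091, + strand: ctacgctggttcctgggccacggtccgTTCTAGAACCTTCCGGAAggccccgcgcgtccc
Dnajb6, chr5:29735820-29735879, + strand: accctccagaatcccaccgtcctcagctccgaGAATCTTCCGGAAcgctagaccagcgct
Hspe1, the mitochondrial co-chaperonin HSP10, holds 2 overlapping matches. It stood at 436, 295 and 112 CPM in controls and 69.9, 74.8 and 62.1 CPM in FBXL5ΔDC (log2 −2.03, SE 0.38, edgeR adjusted p = 0.0149). Hspd1, the chaperonin HSP60 on the other side of the same promoter, had 1345, 1057 and 432 against 374, 362 and 343 CPM (log2 −1.39, SE 0.30, edgeR adjusted p = 0.0244). Dnajb6, an HSP40 of the cytosol and nucleus with the same element, had 41.9, 47.4 and 51.7 against 46.2, 56.4 and 46 CPM, and its groups overlapped (log2 0.08, SE 0.12, edgeR adjusted p = 0.76). A match is a sequence in a window and was not tested as a binding site.

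**Figure D2:**
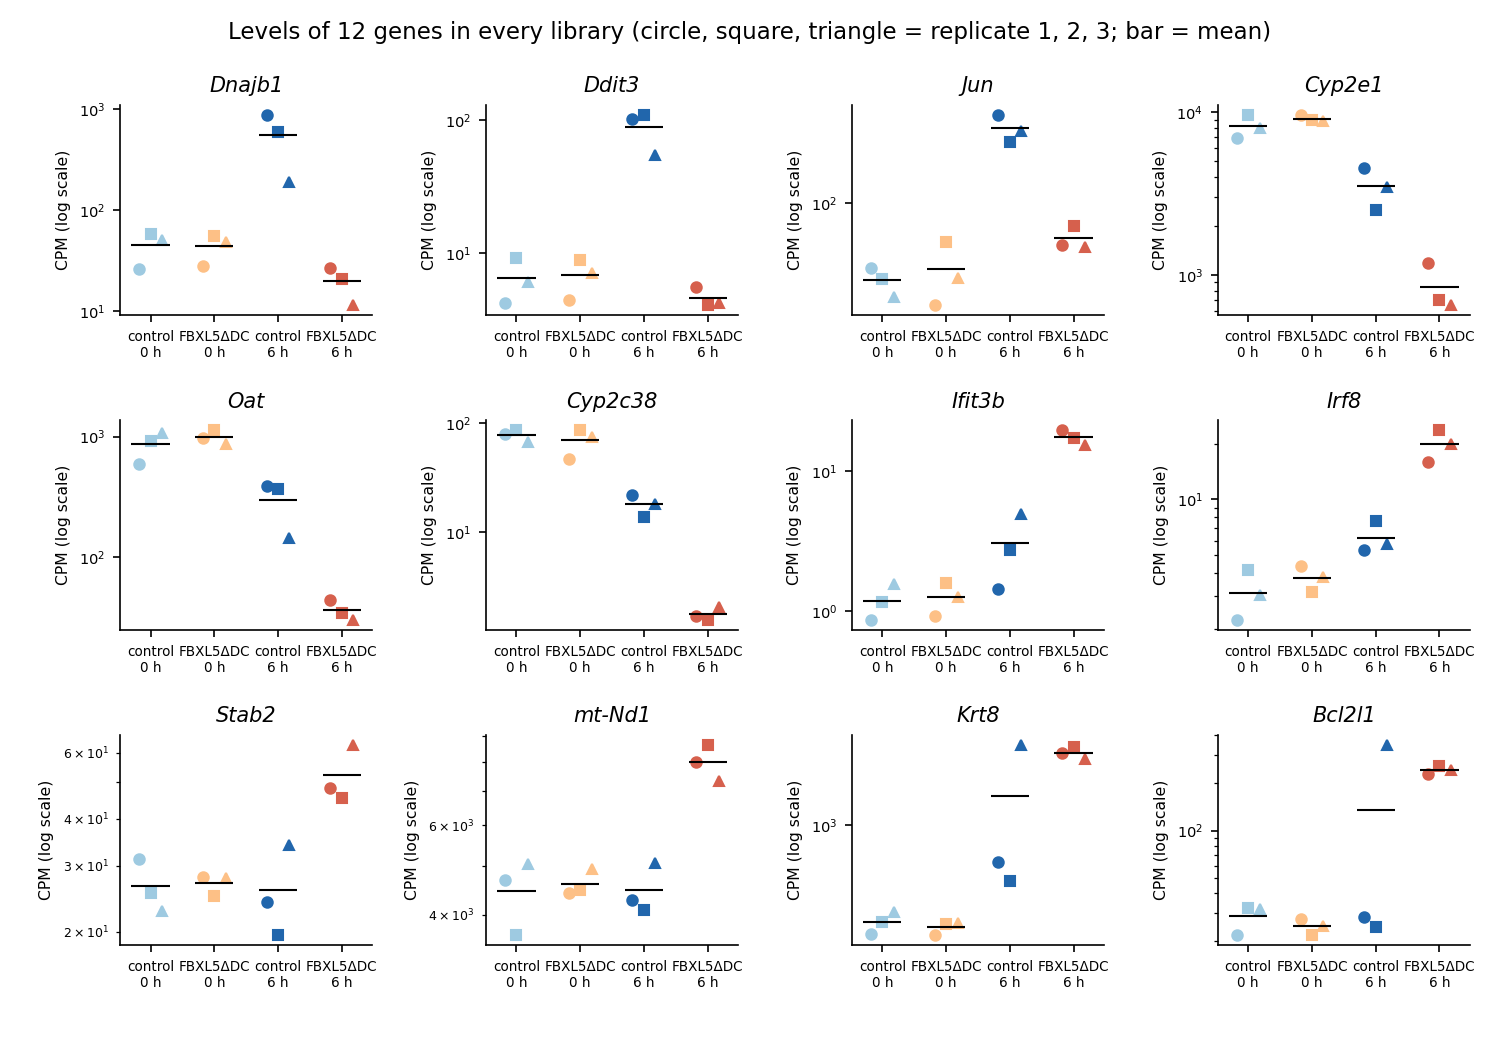
Level in CPM (log axis) of 12 genes in each of the 12 libraries, by genotype and time; symbols mark replicates 1, 2 and 3 and bars the group mean. At 6 h Dnajb1, Ddit3, Jun, Cyp2e1, Oat and Cyp2c38 are lower and Ifit3b, Irf8, Stab2 and mt-Nd1 higher in every FBXL5ΔDC library than in any control, whereas for Krt8 and Bcl2l1 control replicate 3 (triangle) lies with the FBXL5ΔDC libraries.

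Of 23 genes of the integrated stress response, which slows protein synthesis and turns on ATF4, ATF3 and CHOP, 5 were lower and 0 higher (median log2 −0.62); 2 to 5 were lower when 1 library was left out. Ddit3 (chr10:127290774-127296288), which encodes the death-promoting factor CHOP, stood at 102, 111 and 55.1 CPM in control replicates 1, 2 and 3 and at 5.56, 4.02 and 4.22 CPM in FBXL5ΔDC replicates 1, 2 and 3 (log2 −4.28, SE 0.38, edgeR adjusted p = 8.26e-04; stayed called). The FBXL5ΔDC values lay inside or just below the untreated range of 4.18 to 9.09 CPM, and every control lay above it; Mars overlaps Ddit3 on the other strand. Atf3, a stress-induced repressor, had 671, 583 and 416 CPM in controls and 57.8, 123 and 19.3 CPM in FBXL5ΔDC (log2 −3.06, SE 0.70, edgeR adjusted p = 0.0353), against 0.314 to 1.93 CPM in untreated livers, so that it was raised in all 6 libraries and less in FBXL5ΔDC. Smaller differences were found for 2 members. Cebpg, a partner of ATF4, had 70, 71.9 and 66.3 against 40.1, 44.6 and 25.3 CPM (log2 −0.92, SE 0.18, edgeR adjusted p = 0.013; stayed called). Sesn2, a sestrin that restrains mTORC1, had 15.9, 20.7 and 25.5 against 13.3, 9.22 and 7.94 CPM (log2 −1.03, SE 0.23, edgeR adjusted p = 0.0247). Trib3, the pseudokinase induced by CHOP, stands outside this list. It had 19, 24 and 18 against 9.57, 5.86 and 6.14 CPM (log2 −1.5, SE 0.23, edgeR adjusted p = 0.00573) and stayed called. Chac1, a glutathione-degrading CHOP target, lay lower in all 3 FBXL5ΔDC libraries, at 10.1, 11.6 and 3.11 against 25, 14.8 and 29.8 CPM, and did not pass (log2 −1.49, SE 0.42, edgeR adjusted p = 0.0587). Gdf15, a stress cytokine, overlapped between the groups (log2 0.56, SE 0.66, edgeR adjusted p = 0.678).

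Jun, the AP-1 subunit activated by the kinase JNK, stood at 497, 304 and 371 CPM in control replicates 1, 2 and 3 and at 46.6, 66.4 and 45.2 CPM in FBXL5ΔDC replicates 1, 2 and 3 (log2 −2.89, SE 0.39, edgeR adjusted p = 0.00469; stayed called). All controls, replicate 3 included, held several times the level of any FBXL5ΔDC library, and untreated livers held 15.7 to 49.2 CPM; Junos overlaps it on the other strand. Of the 27 immediate early genes tested, Jun was the 1 lower and Fosl2, another AP-1 subunit, the 1 higher (23.1, 22.6 and 37.1 against 45.5, 56.6 and 45.3 CPM; log2 0.83, SE 0.21, edgeR adjusted p = 0.0394). Bbc3, which encodes the death effector PUMA, had 15.1, 10.5 and 7.15 against 3.93, 1.84 and 1.79 CPM (log2 −2.12, SE 0.36, edgeR adjusted p = 0.00915; stayed called). Inhba, the activin A subunit, had 20.3, 10.4 and 9.12 against 4.04, 2.94 and 1.89 CPM (log2 −2.17, SE 0.34, edgeR adjusted p = 0.00665; stayed called). In both, no FBXL5ΔDC library reached the lowest control.

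Chaperones of the endoplasmic reticulum were lower too, but here control replicate 3 mostly sided with FBXL5ΔDC. Of 20 members 6 were lower and 0 higher (median log2 −0.75). Without control replicate 3, 15 were lower and 2 higher. That library was nearer to FBXL5ΔDC at 16 of those 17 (94.1%), against 78.2% of all genes called without it. Without any other library only 1 or 2 were lower. Hspa5, the lumenal HSP70 called BiP, had 1834, 2057 and 1527 against 935, 964 and 678 CPM (log2 −1.07, SE 0.23, edgeR adjusted p = 0.0209). Syvn1, the ubiquitin ligase that clears misfolded lumenal proteins, had 88, 123 and 56.2 against 33.5, 36.1 and 28.5 CPM (log2 −1.45, SE 0.25, edgeR adjusted p = 0.00915; stayed called). Hyou1, an HSP110 of the lumen, had 267, 273 and 127 against 94.2, 86.4 and 99.1 CPM (log2 −1.25, SE 0.25, edgeR adjusted p = 0.0157). Manf, a secreted stress factor, had 123, 107 and 49 against 37.4, 35.6 and 36.7 CPM (log2 −1.35, SE 0.30, edgeR adjusted p = 0.0259). In the last 2 genes control replicate 3 lay just above the FBXL5ΔDC libraries and far below control replicates 1 and 2. Of 29 proteasome subunits, 3 were lower and 0 higher (median log2 −0.22): the ATPase subunits Psmc2 (log2 −0.65, SE 0.13, edgeR adjusted p = 0.0189) and Psmc6 (log2 −0.50, SE 0.13, edgeR adjusted p = 0.0361) and the core subunit Psma1 (log2 −0.68, SE 0.17, edgeR adjusted p = 0.0394).

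Genes of pericentral hepatocytes, the cells that make the toxic metabolite and are injured by it, were the other large group lower in FBXL5ΔDC. Of 30 members 20 were lower and 0 higher (median log2 −1.73), 21 were lower without control replicate 3, 15 to 18 without any other library, and 13 stayed called. The list was low in both genotypes: all 3 control libraries lay below the 6 untreated libraries for 20 members (9.52% over all genes tested) and all 3 FBXL5ΔDC libraries for 25 (19.2%). Cyp2e1 (chr7:140763739-140774987), the main acetaminophen-activating enzyme, stood at 4527, 2513 and 3493 CPM in control replicates 1, 2 and 3 and at 1178, 701 and 649 CPM in FBXL5ΔDC replicates 1, 2 and 3 (log2 −2.06, SE 0.25, edgeR adjusted p = 0.00365; stayed called). All 6 were below the untreated range of 6972 to 9672 CPM, and each FBXL5ΔDC library was lower than every control. Cyp1a2, the other classical activating enzyme, had 256, 202 and 135 against 77.7, 50.4 and 47.6 CPM (log2 −1.75, SE 0.23, edgeR adjusted p = 0.00367; stayed called). Control replicate 1 came close to the untreated range of 267 to 447 CPM and no FBXL5ΔDC library did.

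Oat, ornithine aminotransferase, had 389.7, 365 and 146 against 44.3, 34.5 and 30 CPM (log2 −3.05, SE 0.35, edgeR adjusted p = 0.00365; stayed called), against 593 to 1144 CPM untreated. Slc1a2, the glutamate transporter of the innermost pericentral cells, had 12.3, 11.1 and 1.1 CPM in controls and only 0.123, 0 and 0.0596 CPM in FBXL5ΔDC (edgeR adjusted p = 0.00759; stayed called). The FBXL5ΔDC values lay below 0.187 CPM, the level of 12 counts, so no fold is given. Untreated livers held 134 to 187 CPM, far above all 6 libraries, and control replicate 3 was the lowest control. Tbx3, a Wnt-driven transcription factor of the zone, had 34.2, 15.8 and 2.81 against 0.63, 0.673 and 0.671 CPM (log2 −4.74, SE 0.73, edgeR adjusted p = 0.00915; stayed called), with control replicate 3 the lowest control. Cyp2a5, an inducible P450, had 1286, 1120.2 and 337 against 45.3, 28.5 and 11.1 CPM (log2 −5.01, SE 0.70, edgeR adjusted p = 0.00665; stayed called). This gene lay above its untreated range of 176 to 510.5 CPM in control replicates 1 and 2 and below it in every FBXL5ΔDC library. Lhpp, a histidine phosphatase, had 41, 31.7 and 14.9 against 3.3, 1.76 and 2.1 CPM (log2 −3.61, SE 0.41, edgeR adjusted p = 0.00365; stayed called). Akr1c6, a steroid dehydrogenase, had 323, 322 and 193 against 93.7, 58.1 and 62.3 CPM (log2 −1.97, SE 0.23, edgeR adjusted p = 0.0026; stayed called).

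Glul, glutamine synthetase, which marks the single layer of cells around the central vein, was not called. It had 143, 52.7 and 102 CPM in controls and 109, 129 and 136 CPM in FBXL5ΔDC and the groups overlapped (log2 0.33, SE 0.26, edgeR adjusted p = 0.491). All 6 were below the untreated range of 514 to 729.8 CPM. Among 30 P450 and related phase 1 genes listed for acetaminophen activation, many of which are pericentral too, 7 were lower and 2 higher (median log2 −0.30). Cyp2c38 had 22, 13.8 and 18.2 against 1.69, 1.53 and 2.01 CPM (log2 −3.37, SE 0.25, edgeR adjusted p = 1.08e-04; stayed called). Cyp2c37 had 130.4, 53.3 and 94.4 against 25, 30.6 and 18.1 CPM (log2 −1.92, SE 0.28, edgeR adjusted p = 0.00474; stayed called). Genes of this family resemble each other, and how shared reads were split is not given in the sources used here. The control libraries of Cyp2c38 lay within 13.8 to 22 CPM, replicate 3 in the middle. Of 27 conjugation genes 3 were lower and 0 higher (11.1% lower, against 4.51% of all genes tested). The lower ones included the glutathione transferases Gsta3 (log2 −0.91, SE 0.21, edgeR adjusted p = 0.0276) and Gstm2 (log2 −1.27, SE 0.28, edgeR adjusted p = 0.0238). The bilirubin glucuronosyltransferase Ugt1a1 overlapped (log2 0.09, SE 0.18, edgeR adjusted p = 0.828). Of 26 genes listed for glutathione synthesis and NRF2, 1 was lower and 0 higher. The lower 1 was Trib3, described above as induced by CHOP. Without control replicate 3, 7 were higher and 3 lower, against 10.1% and 12.9% of all genes tested in that fit. Gclc, the catalytic subunit of the ligase that limits glutathione synthesis, had 1892, 1498 and 3699 against 2376, 2704 and 2427 CPM (log2 0.08, SE 0.27, edgeR adjusted p = 0.899; without control replicate 3, log2 0.56, adjusted p = 0.0413). Srxn1, which repairs peroxiredoxins, had 1173, 855 and 2112 against 1708, 1716 and 1348 CPM (log2 0.20, SE 0.25, edgeR adjusted p = 0.679; without control replicate 3, log2 0.65, adjusted p = 0.00756). In both genes control replicate 3 was the highest of the 6 libraries. Gclm, the other subunit of that ligase, had 415, 333 and 358 against 275, 332 and 262 CPM (log2 −0.35, SE 0.15, edgeR adjusted p = 0.183). Nqo1, a quinone reductase, had 22.3, 15.2 and 13.2 against 13.2, 14.2 and 13.7 CPM (log2 −0.30, SE 0.26, edgeR adjusted p = 0.536).

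Periportal hepatocytes, at the other end of the lobule, gave 4 of 28 genes higher and 0 lower (median log2 0.27), and 0 to 3 higher without any library but control replicate 3. Asl, of the urea cycle, had 837, 784 and 661 against 1156, 1203 and 1159.7 CPM (log2 0.62, SE 0.15, edgeR adjusted p = 0.0306). Cyp2f2, a P450, had 906, 1039.7 and 1115 against 1411, 1647 and 1547 CPM (log2 0.59, SE 0.13, edgeR adjusted p = 0.0203). The others were the serine dehydratase relative Sdsl (log2 0.90, SE 0.21, edgeR adjusted p = 0.03) and the lipid droplet dehydrogenase Hsd17b13 (log2 0.90, SE 0.23, edgeR adjusted p = 0.0408). In these 4 genes every FBXL5ΔDC library lay above every control. Cps1, the first enzyme of the urea cycle, overlapped (log2 0.25, SE 0.15, edgeR adjusted p = 0.36).

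**Figure D3:**
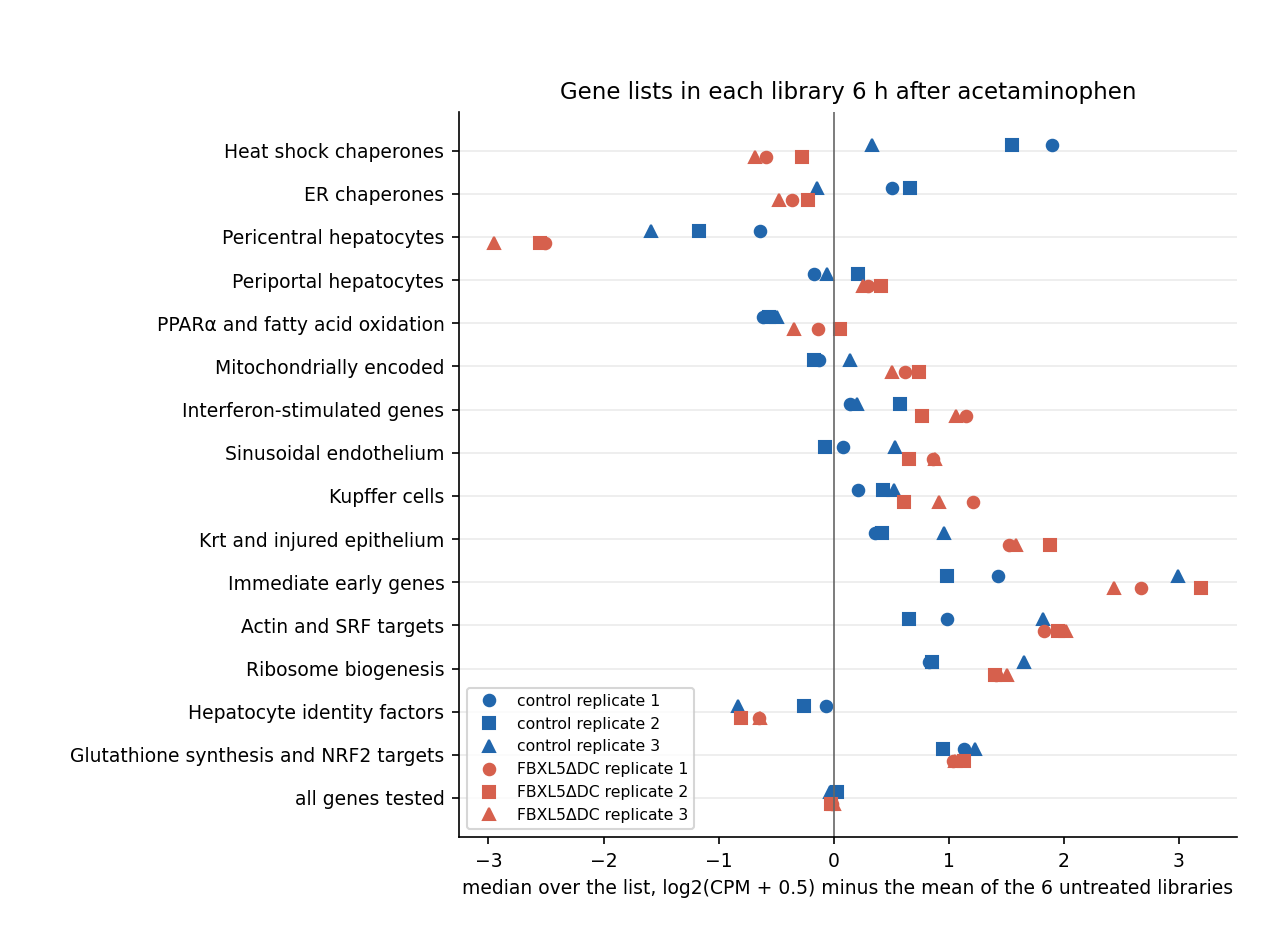
Median over the members of 15 gene lists and over all genes tested, as log2(CPM + 0.5) minus the mean of the 6 untreated libraries, for each library 6 h after acetaminophen (blue, control; red, FBXL5ΔDC). Heat shock chaperones run from 0.34 to 1.90 in controls and from −0.68 to −0.27 in FBXL5ΔDC, and pericentral genes from −1.59 to −0.64 and from −2.95 to −2.51; for immediate early, actin and ribosome biogenesis genes the control triangle (replicate 3) lies with the red symbols.

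Transcripts encoded by mitochondrial DNA took a larger share of the counts in FBXL5ΔDC. The share was 6.34%, 6.34% and 7.00% in control replicates 1, 2 and 3 and 8.88%, 9.34% and 9.12% in FBXL5ΔDC. Every FBXL5ΔDC library lay above every control and above the untreated range of 5.27% to 6.80%, and control replicate 3 was the highest control. The means were 6.56% ± 0.379 (SD, n = 3) and 9.11% ± 0.231 (SD, n = 3), a difference of 2.55 percentage points, with a two-sided exact permutation p = 0.1, the smallest that 3 against 3 can give. At 0 h the difference was 0.198 points (exact permutation p = 1). Of 15 mitochondrial genes 10 were called higher and 0 lower (median log2 0.63), and 12 were higher without control replicate 3. All 3 FBXL5ΔDC libraries lay above the 3 controls for 13 members and below them for 1 (9.74% and 11.2% over all genes tested). The higher members were 1 and 3 without control replicates 1 and 2, and 4, 2 and 9 without FBXL5ΔDC replicates 1, 2 and 3.

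These genes are read out from long precursors and encode subunits of the respiratory chain and its ribosomal RNAs. mt-Nd1, of complex I, stood at 4289.9, 4087 and 5071 CPM in control replicates 1, 2 and 3 and at 7979.9, 8649.7 and 7350.5 CPM in FBXL5ΔDC replicates 1, 2 and 3 (log2 0.83, SE 0.15, edgeR adjusted p = 0.0096; stayed called). mt-Co1, of complex IV, had 16645, 15536 and 19860.0 against 25751, 29226 and 23748 CPM (log2 0.60, SE 0.14, edgeR adjusted p = 0.0312). mt-Cytb, of complex III, had 7521, 7733 and 10196 against 14019, 14935 and 12499 CPM (log2 0.70, SE 0.15, edgeR adjusted p = 0.021). In all 3 genes every FBXL5ΔDC library was higher than every control. mt-Nd5 and mt-Nd6, which overlap on opposite strands, were among the 10 (log2 0.98, SE 0.18, edgeR adjusted p = 0.0113, and log2 1.07, SE 0.20, edgeR adjusted p = 0.0117). Both also lay higher in every untreated FBXL5ΔDC library than in any untreated control (log2 0.33 for each, not called). For neither did the 6 h difference depart from that at 0 h by the interaction term of the same fit (edgeR adjusted p = 0.261 and 0.244). Of 33 nuclear genes of the respiratory chain, 0 were higher and 0 lower by edgeR. Without control replicate 3, 6 were higher, against 10.1% of all genes tested in that fit.

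**Figure D4:**
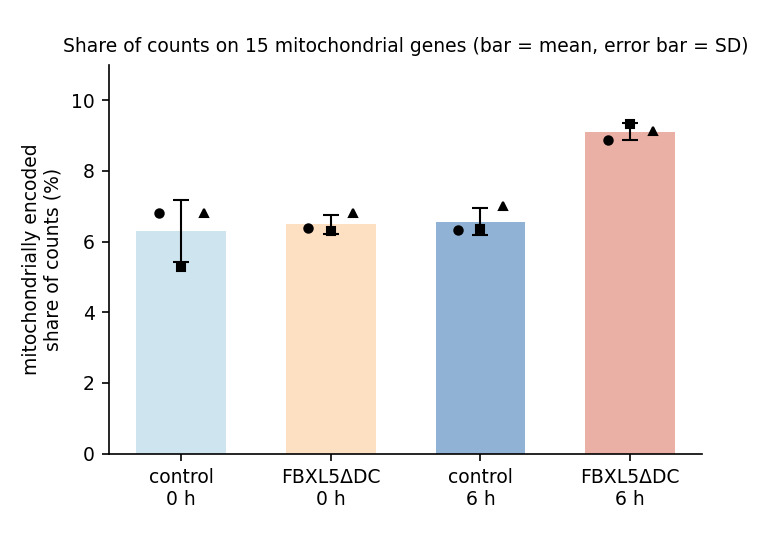
Share of each library's counts on 15 mitochondrially encoded genes, in percent; bars are group means, error bars SD (n = 3) and symbols the replicates. The FBXL5ΔDC libraries at 6 h lie at 8.88% to 9.34% and all other libraries at or below 7.00%.

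Genes of fatty acid oxidation, which PPARα drives in fasting, were higher in FBXL5ΔDC, at 5 of 31 (1 lower; median log2 0.45), and at 18 without control replicate 3 (1 lower). Only 1 was higher without control replicate 1, control replicate 2 or FBXL5ΔDC replicate 2, and 3 and 7 without FBXL5ΔDC replicates 1 and 3. All 3 control libraries lay below the untreated range for 23 members, against 9.52% over all genes tested. All 3 FBXL5ΔDC libraries did so for 7 members, a share near the 19.2% over all genes tested. Ehhadh, the peroxisomal bifunctional enzyme, had 951, 1139 and 1373 CPM in controls and 2417, 2589 and 2063 CPM in FBXL5ΔDC (log2 1.03, SE 0.19, edgeR adjusted p = 0.0117), against 1811 to 2777 CPM untreated. Etfdh, which passes electrons from fatty acid oxidation to the respiratory chain, had 205, 218 and 236 against 320.5, 368 and 294 CPM (log2 0.58, SE 0.11, edgeR adjusted p = 0.0157). In both genes the FBXL5ΔDC libraries lay nearer to the untreated level than the controls did. Ppara, the receptor, was the lower 1, with 62.9, 50.5 and 31 against 16.1, 17 and 30.6 CPM (log2 −1.18, SE 0.27, edgeR adjusted p = 0.0276); control replicate 3 and FBXL5ΔDC replicate 3 were nearly level.

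Among lipid droplet and lipogenesis genes 2 of 27 were higher and 1 lower (7.41% and 3.70%, against 1.35% and 4.51% of all genes tested). Plin5, a droplet coat protein of oxidative tissues, had 49, 51 and 55.6 against 79.8, 117 and 127 CPM (log2 1.06, SE 0.20, edgeR adjusted p = 0.0123), and Gpam, which starts glycerolipid synthesis, was higher (log2 0.69, SE 0.17, edgeR adjusted p = 0.0357). Dgat2, which makes triglyceride, had 568, 525 and 439 against 259, 277 and 233 CPM (log2 −1.0, SE 0.13, edgeR adjusted p = 0.00367; stayed called). Outside that list, 2 lipid regulators stood among the falls that stayed called. Angptl8, an insulin-induced inhibitor of lipoprotein lipase, had 52.4, 77 and 24.6 against 4.24, 4.54 and 2.32 CPM (log2 −3.79, SE 0.46, edgeR adjusted p = 0.00367). Pparg, the adipogenic receptor, had 13.8, 9.6 and 6.34 against 1.58, 0.952 and 1.85 CPM (log2 −2.76, SE 0.32, edgeR adjusted p = 0.0026). Of 24 cholesterol genes 2 were higher and 0 lower. Insig2, which holds SREBP in the endoplasmic reticulum, was 1 of them and had 159.7, 114 and 186 against 279, 359 and 341 CPM (log2 1.09, SE 0.21, edgeR adjusted p = 0.0141).

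A part of the interferon-responsive genes was higher in FBXL5ΔDC. These genes answer type I and type II interferons through STAT and IRF factors that bind short GAAA repeats. Of 34 members of the list 6 were higher and 0 lower (median log2 0.64), and without control replicate 3 12 were higher and 5 lower. Without any other library 1 or 2 were higher and 0 lower. The repeat, searched on both strands as TTTC, any 2 bases and TTTC, was found in 22 of 224 promoters of genes called higher (9.82%), in 3.34% of those called lower, in 3.19% of all and in 55.2% of the 29 promoters of the list. Windows upstream of the start of 6 genes called higher that hold it are printed, with the match in capitals, since they show the repeat on either strand and in related and unrelated genes.
Ifit3, chr19:34583358-34583431, + strand: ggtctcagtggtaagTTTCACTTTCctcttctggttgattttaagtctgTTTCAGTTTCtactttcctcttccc
Rsad2, chr12:26456548-26456607, − strand: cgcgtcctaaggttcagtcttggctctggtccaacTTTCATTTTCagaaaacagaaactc
Cxcl10, chr5:92349078-92349137, − strand: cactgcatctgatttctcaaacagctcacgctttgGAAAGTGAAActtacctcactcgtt
Slfn5, chr11:82951912-82951971, + strand: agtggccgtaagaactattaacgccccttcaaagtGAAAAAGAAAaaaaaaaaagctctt
Ifi208, chr1:173673572-173673631, + strand: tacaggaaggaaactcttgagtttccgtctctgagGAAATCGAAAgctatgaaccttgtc
Mndal, chr1:173880199-173880258, − strand: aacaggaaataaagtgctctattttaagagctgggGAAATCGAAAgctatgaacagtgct
Mndal, other RefSeq start, chr1:173879988-173880047, − strand: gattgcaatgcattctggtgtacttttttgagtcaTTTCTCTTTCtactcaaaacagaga
Ifit3 carries 2 matches. Ifi208 and the first Mndal window, of the same gene family, share the match and the bases after it. In Cxcl10, Slfn5, Ifi208 and the first Mndal window the match is read on the opposite strand of the gene, and at the other Mndal start it is read on the gene's own strand.

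Ifit3, an interferon-induced protein that binds viral RNA complexes, stood at 5.28, 11.5 and 16 CPM in control replicates 1, 2 and 3 and at 50.1, 44.9 and 47.8 CPM in FBXL5ΔDC replicates 1, 2 and 3 (log2 2.12, SE 0.46, edgeR adjusted p = 0.0253). Its close copy Ifit3b had 1.44, 2.73 and 4.97 against 19.7, 17.3 and 15.3 CPM (log2 2.52, SE 0.39, edgeR adjusted p = 0.00606; stayed called), and how reads of the pair were split is not given in the sources used here. Rsad2, the antiviral enzyme viperin, had 7.83, 21.2 and 24.7 against 66.5, 52.4 and 67.2 CPM (log2 1.79, SE 0.40, edgeR adjusted p = 0.0259). In all 3 genes FBXL5ΔDC lay above every control and above every untreated library. Slfn5, a Schlafen family gene, had 6.44, 6.6 and 19.6 against 45.4, 44.6 and 51.6 CPM (log2 2.12, SE 0.38, edgeR adjusted p = 0.0114; stayed called). Mndal, a nucleic acid sensor of the Ifi200 family, had 2.28, 3.25 and 7.73 against 18.8, 20.2 and 23.5 CPM (log2 2.24, SE 0.38, edgeR adjusted p = 0.00915; stayed called). Ifi208, of the same family, had 0.568, 0.63 and 3.7 against 12, 12.5 and 11.8 CPM (log2 2.90, SE 0.65, edgeR adjusted p = 0.0255). Here control replicate 3 was the highest control but stayed below each FBXL5ΔDC library. Only 1 member of the list stayed called. Ifit3b, Slfn5 and Mndal all stayed called, so they are not all members of it, and genes off the list were picked with values known. Of the classical members, Isg15 and Ifit1 did not pass (log2 0.47, SE 0.31, edgeR adjusted p = 0.394, and log2 0.95, SE 0.38, edgeR adjusted p = 0.16).

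Cxcl10 and Cxcl11, chemokines that interferon γ induces and that draw T cells through CXCR3, were higher. Cxcl10 stood at 2.77, 5.23 and 21.1 CPM in control replicates 1, 2 and 3 and at 75.6, 73.3 and 55.8 CPM in FBXL5ΔDC replicates 1, 2 and 3 (log2 2.82, SE 0.60, edgeR adjusted p = 0.0253), with control replicate 3 above the other controls. Cxcl11 was low in controls, at 0.555, 0.185 and 0.391 CPM, and had 3.59, 2.28 and 2.61 CPM in FBXL5ΔDC (log2 2.90, SE 0.52, edgeR adjusted p = 0.0108; stayed called); Art3 overlaps both genes on the other strand. Of 36 chemokine and cytokine genes tested, Cxcl10 was the 1 higher and 0 were lower, since Cxcl11 stood outside the list. Cxcl1, which draws neutrophils, had 1.78, 1.77 and 28.7 against 48.9, 73.2 and 56 CPM; control replicate 3 lay far above the other controls, and the gene did not pass (log2 2.47, SE 1.05, edgeR adjusted p = 0.197; without control replicate 3, log2 5.06, adjusted p = 8.12e-04). Irf1, the first interferon γ response factor, had 13.5, 11.8 and 11 against 24.6, 21.8 and 20.3 CPM (log2 0.88, SE 0.16, edgeR adjusted p = 0.0108; stayed called), and untreated livers held 11 to 16.5 CPM. Socs3, the feedback inhibitor of IL-6 signalling, had 10.6, 10.1 and 33.6 against 65.9, 96 and 79.5 CPM (log2 2.15, SE 0.41, edgeR adjusted p = 0.016). Vcam1, an adhesion protein, had 8.7, 17 and 21 against 39.6, 29.3 and 46 CPM (log2 1.30, SE 0.34, edgeR adjusted p = 0.0426). Batf2, an interferon-induced AP-1 partner, had 0.477, 0.0371 and 0.542 against 3.03, 2.89 and 3.41 CPM (log2 3.14, SE 0.70, edgeR adjusted p = 0.0247). Its control replicate 2 lay below 0.161 CPM, the level of 12 counts in controls, so the size of this fold is uncertain. With Irf1, Socs3 and Vcam1, 3 of 22 genes of NF-κB feedback and adhesion were higher and 0 lower.

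Irf8, the transcription factor of type 1 dendritic cells and of macrophages, was the 1 higher of 18 dendritic cell markers tested (0 lower). It stood at 5.32, 7.61 and 5.73 CPM in control replicates 1, 2 and 3 and at 15.9, 23.8 and 20 CPM in FBXL5ΔDC replicates 1, 2 and 3 (log2 1.68, SE 0.26, edgeR adjusted p = 0.00553; stayed called), and no FBXL5ΔDC library came near the highest control. The summed level of the markers was 91.6 to 132 CPM in controls and 125 to 135 CPM in FBXL5ΔDC, and Clec4a4 and Mgl2 were too low to test. Class II MHC and costimulation genes, which antigen-presenting cells use, gave 0 of 13 higher or lower. H2-Aa, a class II chain, had 4.5, 12.2 and 8.14 against 13.2, 9.73 and 11.7 CPM (log2 0.48, SE 0.29, edgeR adjusted p = 0.368). Cd74, its chaperone, had 14.1, 42.7 and 27.9 against 51.3, 42.2 and 37.6 CPM (log2 0.63, SE 0.34, edgeR adjusted p = 0.299). Both overlapped, control replicate 1 being the lowest.

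Sinusoidal endothelium, which lines the liver's capillaries, gave 5 of 24 markers higher and 0 lower (median log2 0.81), and 14 without control replicate 3. Without control replicate 1 or 2, 0 were higher, and without FBXL5ΔDC replicates 1, 2 and 3 they were 2, 2 and 1. The summed level was 453, 389 and 666 CPM in controls and 801, 770 and 931 CPM in FBXL5ΔDC, against 385 to 504 CPM untreated. Stab2, a scavenger receptor, had 23.9, 19.5 and 33.9 against 48.4, 45.6 and 63.1 CPM (log2 1.02, SE 0.20, edgeR adjusted p = 0.0147). Stab1, its relative, had 32.8, 32.5 and 46.3 against 57.4, 65.2 and 98.2 CPM (log2 0.98, SE 0.21, edgeR adjusted p = 0.0203). Both were higher in every FBXL5ΔDC library than in any control. So were the nuclease Dnase1l3 (log2 0.99, SE 0.21, edgeR adjusted p = 0.0204) and the mannose receptor Mrc1 (log2 0.85, SE 0.20, edgeR adjusted p = 0.0324). Markers of Kupffer cells, the resident macrophages of the liver, gave 2 of 22 higher and 1 lower (median log2 0.58). Without control replicate 3, 8 were higher, against 10.1% of all genes tested in that fit. C1qb, a complement subunit, had 19.9, 22.2 and 29.4 against 48.8, 35.6 and 40.2 CPM (log2 0.80, SE 0.18, edgeR adjusted p = 0.0253). Cd163, the haemoglobin receptor, had 8.77, 12 and 16.8 against 27.1, 20.1 and 23.8 CPM (log2 0.92, SE 0.24, edgeR adjusted p = 0.0455). Clec4f, a lectin specific to these cells, had 40.6, 51.5 and 47.1 against 74, 51.6 and 79.3 CPM and did not pass (log2 0.56, SE 0.17, edgeR adjusted p = 0.0749). Nr1h3, the receptor LXRα that hepatocytes also use, was the lower 1 (log2 −0.96, SE 0.21, edgeR adjusted p = 0.025).

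Markers of infiltrating cells did not pass in number. Of 12 neutrophil markers tested 0 were called, and Ly6g, Mpo and Elane were too low to test. Without control replicate 3, 4 were higher and 0 lower. Their summed level was 482, 433 and 655 CPM in controls and 731, 867 and 824 CPM in FBXL5ΔDC, without overlap. Untreated livers already held 365, 449 and 563 CPM in controls and 506, 785 and 555 CPM in FBXL5ΔDC. Most of the sum came from Lrg1, which hepatocytes also make. It had 471, 424 and 631 against 695, 829 and 790.4 CPM (log2 0.60, SE 0.21, edgeR adjusted p = 0.116; without control replicate 3, log2 0.78, adjusted p = 0.0162). S100a8, a calprotectin subunit, had 0.258, 0.47 and 0.707 against 1.6, 3.26 and 0.194 CPM (log2 1.81, SE 1.07, edgeR adjusted p = 0.346). S100a9, the other subunit, had 0.877, 0.705 and 0.843 against 2.92, 1.71 and 0.775 CPM (log2 1.15, SE 0.51, edgeR adjusted p = 0.196). Of 20 lymphocyte markers 0 were called, and their summed level was 6.03 to 10.4 CPM in controls and 6.40 to 9.58 CPM in FBXL5ΔDC. Of 21 monocyte and macrophage markers 1 was lower and 0 were higher (4.76% lower, near the 4.51% of all genes tested). Stellate cell markers summed to 227 to 417 CPM in controls and 445 to 536 CPM in FBXL5ΔDC. Untreated, they summed to 192 to 308 and 144 to 240 CPM. Yet of these 22 markers 0 were called higher and 1 lower. Cholangiocyte markers summed to 27.3 to 82.7 and 68.3 to 264 CPM, and of 7 tested 0 were called. The part of these cells in the gene differences above was not tested.

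**Figure D5:**
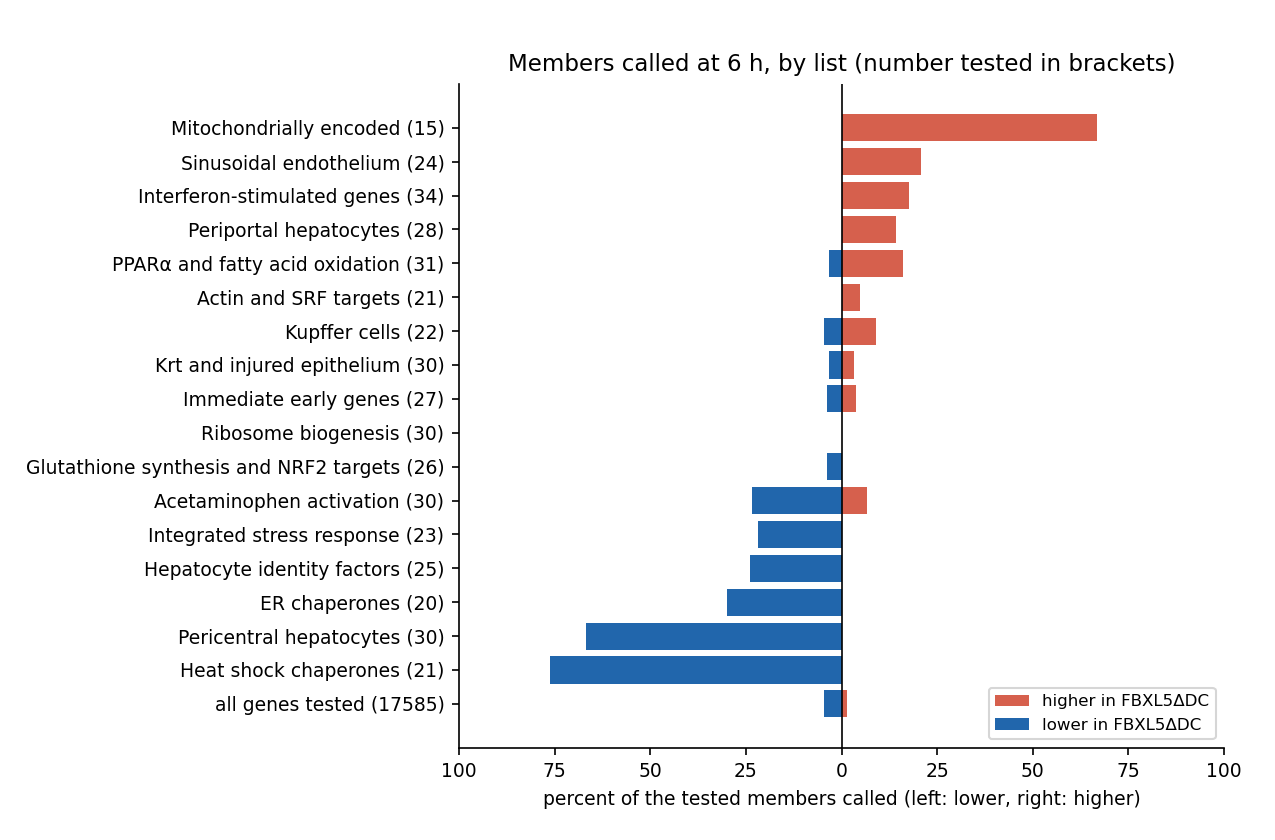
Percent of the tested members of 17 gene lists called higher (red, right) or lower (blue, left) in FBXL5ΔDC than in control livers 6 h after acetaminophen, with the number tested in brackets and all 17585 genes at the bottom. Heat shock chaperones (76.2% lower), pericentral genes (66.7% lower) and mitochondrially encoded genes (66.7% higher) lie furthest from the 4.51% lower and 1.35% higher of all genes.

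A further set of genes separated control replicates 1 and 2 from FBXL5ΔDC, with control replicate 3 on the FBXL5ΔDC side, and these mostly were not called. Krt8, a keratin that injured hepatocytes induce, stood at 519, 377 and 4056 CPM in control replicates 1, 2 and 3 and at 3489, 3862 and 3131 CPM in FBXL5ΔDC replicates 1, 2 and 3 (log2 1.08, SE 0.73, edgeR adjusted p = 0.425; without control replicate 3, log2 2.96, adjusted p = 8.71e-07). Its partner Krt18 had 282, 197 and 1417 against 1476, 1523 and 1380.2 CPM (adjusted p = 0.268 by edgeR, and 4.90e-06 without that library). The survival genes Bcl2l1 and Mcl1, which block mitochondrial death, had the same order. Bcl2l1 had 28.5, 24.5 and 350.2 against 228, 255 and 240.4 CPM (log2 0.84, and 3.18 without control replicate 3), and Mcl1 157, 109 and 448 against 462, 559 and 323 CPM (log2 0.91 and 1.76). Control replicate 3 lay above the FBXL5ΔDC libraries for Krt8 and Bcl2l1 and among them for Krt18 and Mcl1.

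The same held for metal and heme defence, the cytoskeleton and lipid storage. Mt1, a metallothionein, had 369, 390.1 and 2293 against 1882, 2298 and 1850.0 CPM, and Hmox1, heme oxygenase 1, 350.1, 229 and 1158 against 893, 1548 and 772 CPM. Actb and Actg1, the cytoplasmic actins, had 924, 414 and 1829.6 against 1783, 2127 and 1742 CPM and 529.7, 253 and 1937 against 1764, 1975 and 1447 CPM, and Plin2, the main droplet coat of hepatocytes, 508, 378 and 2516 against 1737, 2062 and 1972 CPM. None of these 5 passed with all libraries (edgeR adjusted p = 0.486, 0.353, 0.22, 0.36 and 0.496 in that order), all 5 passed without control replicate 3, and control replicate 3 was above the highest other control in each. By list, 14 keratin and injury genes were higher and 2 lower without control replicate 3, against 1 and 1 with it, and control replicate 3 was nearer to FBXL5ΔDC at 14 of those 16. Immediate early genes gave 13 higher and 1 lower (13 of 14 nearer), actin and SRF targets 15 and 0 (15 of 15) and ribosome biogenesis 14 and 1 (14 of 15). That library was nearer to FBXL5ΔDC at 78.2% of all genes called without it, not far below the 87.5% of the keratin list. Fos, the immediate early partner of Jun, had 8.71, 5.56 and 91.7 against 15.4, 38 and 14.5 CPM; its log2 difference was −0.64 with all libraries and 1.66 without control replicate 3, neither of which passed (edgeR adjusted p = 0.749 and 0.0819).

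Of 18 genes of bile acid synthesis 3 were lower and 1 higher, and 9 and 2 without control replicate 3. Control replicate 3 lay nearer to FBXL5ΔDC at 81.8% of these 11, against 78.2% of all genes called without it. Cyp7a1, the rate-limiting enzyme of bile acid synthesis, had 106, 82 and 2.3 CPM in controls and 0.722, 0 and 0.834 CPM in FBXL5ΔDC (log2 −6.91, SE 1.49, edgeR adjusted p = 0.0322). As FBXL5ΔDC replicate 2 stood at 0 CPM, the size of this fold is uncertain. Control replicates 1 and 2 lay in or above the untreated range of 21.1 to 92.3 CPM, and control replicate 3 far below it, like FBXL5ΔDC. Nr0b2, the repressor SHP, had 20.5, 27.5 and 7.34 against 5.67, 3.82 and 5.65 CPM (log2 −1.87, SE 0.40, edgeR adjusted p = 0.0225). Nr1h4, the bile acid receptor FXR, had 105, 71.9 and 53.8 against 40.7, 45.4 and 33.8 CPM (log2 −0.94, SE 0.21, edgeR adjusted p = 0.0222). Hepatocyte identity factors gave 6 of 25 lower and 0 higher, and 14 and 1 without control replicate 3; Nr1i3, the xenobiotic receptor CAR, was among them (141, 63.1 and 60 against 31.9, 44.5 and 31.4 CPM; log2 −1.29, SE 0.28, edgeR adjusted p = 0.0244). Ppp1r3b, which targets protein phosphatase 1 to glycogen, had 152, 203 and 14.5 against 4.73, 3.69 and 6.82 CPM (log2 −4.60, SE 0.82, edgeR adjusted p = 0.0157), and again control replicate 3 lay far below the other controls.

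Growth factors and receptors were mixed. Hbegf, the EGF receptor ligand, rose from 1.44, 1.08 and 7.82 CPM in controls to 25.8, 108 and 21.9 CPM in FBXL5ΔDC (log2 3.91, SE 0.90, edgeR adjusted p = 0.0359), with FBXL5ΔDC replicate 2 far above the rest and control replicate 3 the highest control. Igf1r, the IGF-1 receptor, had 0.516, 1.38 and 1.25 against 4.35, 3.97 and 3.68 CPM (log2 1.93, SE 0.35, edgeR adjusted p = 0.0113; stayed called). Erbb3 and Vegfa, a neuregulin receptor and the vascular growth factor, were lower (log2 −1.33, SE 0.33, edgeR adjusted p = 0.039, and log2 −0.93, SE 0.18, edgeR adjusted p = 0.0126). Of 24 injury growth factor genes 3 were lower and 1 higher, and Igf1r stands outside that list. Apaf1, which assembles the apoptosome, had 2.26, 3.23 and 5.01 against 9.66, 10.8 and 12.9 CPM (log2 1.67, SE 0.30, edgeR adjusted p = 0.0113). Ptpn2, a phosphatase that restrains JAK and STAT, had 13.6, 10.2 and 24.8 against 42.6, 48.8 and 46 CPM (log2 1.5, SE 0.26, edgeR adjusted p = 0.00915). Tifa, an adaptor of NF-κB signalling, had 6.71, 8.41 and 7.3 against 17.7, 20.8 and 18.9 CPM (log2 1.35, SE 0.19, edgeR adjusted p = 0.00421). Timp2, a metalloproteinase inhibitor, was higher too (log2 1.25, SE 0.23, edgeR adjusted p = 0.0113). So were the genes Peg3 (log2 1.36, SE 0.19, edgeR adjusted p = 0.00399) and Tcim (log2 1.36, SE 0.25, edgeR adjusted p = 0.0118). All 7 of Igf1r, Apaf1, Ptpn2, Tifa, Timp2, Peg3 and Tcim stayed called, and for each the 3 FBXL5ΔDC libraries were above the 3 controls. Both were conditions of the rule by which genes of this kind were named, so neither is a separate result. Serpina7, the thyroxine carrier, was among the steepest stable falls, from 42.4, 21.7 and 12.1 to 0.983, 0.394 and 0.119 CPM (log2 −5.67, SE 0.85, edgeR adjusted p = 0.00742, stayed called). Its FBXL5ΔDC replicate 3 lay below 0.187 CPM, the level of 12 counts, so the size of this fold is uncertain.

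Several further lists were touched at single members. Among regulators of glycogen and glucose, Ppp1r3c, the other glycogen targeting subunit, had 36.1, 40.8 and 5.34 against 3.75, 1.94 and 3.28 CPM (log2 −3.20, SE 0.70, edgeR adjusted p = 0.0305). Hk2, hexokinase 2, had 1.21, 0.791 and 0.978 against 3.01, 2.66 and 4.22 CPM (log2 1.73, SE 0.47, edgeR adjusted p = 0.0492). Of 18 clock genes 3 were lower and 0 higher (16.7% lower, against 4.51% of all genes tested). Per3, a period gene, had 8.76, 14 and 1.07 against 1.69, 1.1 and 0.685 CPM (log2 −2.78, SE 0.69, edgeR adjusted p = 0.0378). The others were the PAR factor Tef (log2 −0.92, SE 0.18, edgeR adjusted p = 0.0134) and the repressor Nfil3 (log2 −1.17, SE 0.28, edgeR adjusted p = 0.0306). Dbp, another PAR factor, had 29.4, 38.1 and 3.43 against 3.19, 3.26 and 3.26 CPM and did not pass (log2 −2.87, SE 0.90, edgeR adjusted p = 0.0934). In Per3, Dbp and Ppp1r3c control replicate 3 lay with the FBXL5ΔDC libraries. Of 27 lysosome and autophagy genes 2 were lower (7.41%, against 4.51% of all genes tested). They were the master regulator Tfeb (7.81, 8.06 and 4.24 against 3.3, 2.82 and 1.82 CPM, log2 −1.34, SE 0.28, edgeR adjusted p = 0.0183) and the conjugation factor Atg5 (log2 −0.59, SE 0.15, edgeR adjusted p = 0.0364).

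Acute phase proteins gave 2 of 28 higher and 1 lower (7.14% and 3.57%, against 1.35% and 4.51% of all genes tested). The higher 2 were Socs3 and the hyaluronan-binding Itih3 (694, 840.1 and 853 against 1244, 1459.7 and 1428 CPM, log2 0.79, SE 0.15, edgeR adjusted p = 0.013). Orm1, orosomucoid, had 342, 272 and 360.2 against 547, 485 and 487 CPM and Lcn2, lipocalin 2, 8.53, 6.12 and 58 against 24.6, 56.8 and 143 CPM, and neither passed (edgeR adjusted p = 0.106 and 0.556). Of 30 keratin and injury genes 1 was higher and 1 lower. The higher was the urokinase receptor Plaur, at 1.68, 1.78 and 6.29 against 11.1, 15.6 and 10.4 CPM (log2 1.93, SE 0.51, edgeR adjusted p = 0.045). The lower was Sprr1a, of the cornified envelope, at 18, 21.5 and 13.5 against 5.71, 3.86 and 2.85 CPM (log2 −2.09, SE 0.32, edgeR adjusted p = 0.0115). Among p53 targets Ei24, a gene of the endoplasmic reticulum, was higher (log2 0.58, SE 0.11, edgeR adjusted p = 0.013; stayed called). Cdkn1a, the cell cycle inhibitor p21, did not pass, at 29.2, 37.5 and 168 against 154, 182 and 191 CPM (log2 1.17, SE 0.72, edgeR adjusted p = 0.379). Among hepatocyte transporters Slco1b2 was lower (log2 −0.73, SE 0.19, edgeR adjusted p = 0.0416) and Slc10a1, the bile salt carrier NTCP, overlapped (log2 0.36, SE 0.16, edgeR adjusted p = 0.191).

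Large differences were also found in genes of no list, of which several had low counts. Map3k8, a kinase of Toll-like receptor signalling, had 0.813, 1.22 and 5.48 against 11.8, 20.1 and 13.8 CPM (log2 2.61, SE 0.56, edgeR adjusted p = 0.0219). Ifi211, next to Mndal and Ifi208, had 1.12, 1.71 and 4.29 against 10.5, 9.73 and 11.9 CPM (log2 2.17, SE 0.44, edgeR adjusted p = 0.017). Mid1, a microtubule-bound ubiquitin ligase, had 2.1, 3.66 and 2.38 against 12.3, 11.4 and 18 CPM (log2 2.36, SE 0.45, edgeR adjusted p = 0.013). Prickle2, of planar cell polarity, had 0.568, 0.841 and 1.99 against 5.45, 5.89 and 4.93 CPM (log2 2.26, SE 0.49, edgeR adjusted p = 0.0207). Tgfb3, a TGF-β ligand, had 0.774, 0.655 and 0.767 against 3.82, 2.56 and 3.87 CPM (log2 2.22, SE 0.60, edgeR adjusted p = 0.0469). In all 5 each FBXL5ΔDC library was above each control, which the rule for naming the largest differences required. For Map3k8, Ifi211 and Prickle2 control replicate 3 was the highest control. Nrgn, a calmodulin-binding protein, was higher at under 4 CPM (log2 2.45, SE 0.58, edgeR adjusted p = 0.0302), and so was the mitochondrial tRNA gene mt-Tw, at 1.02, 1.8 and 3.9 against 6.23, 18.1 and 9.43 CPM (log2 2.33, SE 0.49, edgeR adjusted p = 0.0203). Hsd3b5, a male-biased steroid dehydrogenase, had 17.1, 27.2 and 1.7 against 0.445, 0 and 0.179 CPM (log2 −6.18, SE 1.24, edgeR adjusted p = 0.0224). Its FBXL5ΔDC replicates 2 and 3 lay below 0.187 CPM, the level of 12 counts, so the size of this fold is uncertain. Zfp324, a zinc finger gene, had 9.04, 6.35 and 1.53 against 0.875, 0.591 and 0.432 CPM (log2 −3.16, SE 0.54, edgeR adjusted p = 0.00915; stayed called). Hey1, a Notch target, had 7.32, 2.9 and 0.181 CPM in controls and 0.169, 0.0656 and 0.0596 CPM in FBXL5ΔDC (edgeR adjusted p = 0.0172), and the small nuclear RNA gene Rn7sk 4.98, 3.02 and 1.78 and 0.0614, 0.18 and 0.119 CPM (edgeR adjusted p = 0.0276). No fold is given for these 2, since every FBXL5ΔDC library held fewer than 12 counts, and for Hey1 control replicate 3 was equally low.

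Of 37 iron genes, the pathway that the deletion touches in dendritic cells, 2 were higher and 3 lower (5.41% and 8.11%, against 1.35% and 4.51% of all genes tested; median log2 0.04). Without control replicate 3, 4 were higher and 9 lower, against 10.1% and 12.9% of all genes tested in that fit. Of 20 ferroptosis genes 0 were higher and 0 lower by edgeR. In the fit without control replicate 3, 4 were higher and 2 lower, beside the same 10.1% and 12.9%. Ireb2, which encodes the FBXL5 substrate IRP2, was lower, at 62.9, 85.8 and 51.4 against 38.1, 33.3 and 50 CPM (log2 −0.72, SE 0.18, edgeR adjusted p = 0.0388), although control replicate 3 and FBXL5ΔDC replicate 3 were nearly level. Pcbp1, an iron chaperone, had 272, 224 and 216 against 163, 189.7 and 148 CPM (log2 −0.51, SE 0.12, edgeR adjusted p = 0.0324). The third lower gene was the biliverdin reductase Blvrb (log2 −0.71, SE 0.18, edgeR adjusted p = 0.0378). The higher 2 were Slc25a28, a mitochondrial iron importer (18.8, 13.6 and 18.4 against 24.2, 25 and 27.7 CPM; log2 0.60, SE 0.15, edgeR adjusted p = 0.0364), and Cd163, described above. Tfrc, the transferrin receptor, had 71.5, 46.2 and 35.4 against 30.6, 42.9 and 43.4 CPM and did not pass (log2 −0.39, SE 0.22, edgeR adjusted p = 0.328; without control replicate 3, log2 −0.60, adjusted p = 0.0339). The ferritin chains Fth1 and Ftl1 overlapped (log2 0.13, SE 0.22, edgeR adjusted p = 0.793, and log2 −0.03, SE 0.16, edgeR adjusted p = 0.946). Hamp, the iron hormone hepcidin, had 424, 485 and 155 against 114, 216 and 141 CPM (log2 −1.18, SE 0.38, edgeR adjusted p = 0.0927), with control replicate 3 inside the FBXL5ΔDC range; without that library its log2 difference was −1.54 (adjusted p = 0.00125). Gpx4 and Acsl4, which oppose and promote lipid peroxide death, overlapped (log2 0.15, SE 0.12, edgeR adjusted p = 0.518, and log2 −0.43, SE 0.27, edgeR adjusted p = 0.372).

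The genotypes were set against each other at 0 h in the same fit. There 0 of 17585 genes were called (0%) by edgeR, with 465 at an unadjusted p below 0.05; DESeq2 called 9 higher and 7 lower and limma-voom with sample weights 1 and 0. By the interaction term, the genotype difference at 6 h was above that at 0 h in 6 genes and below it in 45 (0.29%). These included Cyp2e1, whose log2 difference was 0.15 at 0 h and −2.06 at 6 h (interaction −2.20, edgeR adjusted p = 0.0327), Ddit3 (0.08 and −4.28; interaction −4.36, adjusted p = 0.0114) and Cyp2c38 (−0.17 and −3.37; interaction −3.20, adjusted p = 0.00459). Leaving out 1 library at 6 h left 2 to 18 lower interaction calls, except without control replicate 3, when 1430 were lower and 1103 higher.

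Of the genes named here, 120 were called, and all kept their direction in every alternative tried. The groups did not overlap for nearly all of them, so their choice largely fixed this in advance, and it is no test of them. How many passed depended on which library was left out. All 120 passed without control replicate 3, 51 without control replicate 1, 57 without control replicate 2, and 66, 57 and 76 without FBXL5ΔDC replicates 1, 2 and 3. In the fit to the 6 libraries at 6 h alone, 3 of them passed.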

How the data were processed

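RNA-seq of whole liver was analysed from 1 deposited table of 55401 genes and 12 libraries. Per the submitters' processing notes, the authors used Trim Galore 0.6.6, HISAT2 2.2.1 and the mm10 genome; the counting program, annotation and strand setting are not given in the sources used here. The deposited values were treated as estimated counts, since they are whole numbers but 4 occurs in 8259 cells of the table against 4942 for 3 and 3416 for 5; they needed no rounding, and a floor of 12 counts was used. Low totals were filtered (filterByExpr), libraries were scaled by TMM, and edgeR 4.0.16 (R 4.3.3) fitted all 4 groups by quasi-likelihood (8 residual degrees of freedom), with Benjamini-Hochberg adjustment over 17585 genes. Differences are log2 FBXL5ΔDC over control, and SE is the log2 difference divided by the root of F. Totals were 67173096 to 72512319 counts per library.

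The members and all 49 gene lists were chosen with earlier results of these data known, and no list is independent evidence. Named genes are the lists' anchors, up to 15 higher and 15 lower genes with the largest differences among called genes whose groups do not overlap (mean CPM of at least 2 in the higher group), up to 12 of each direction that stayed called without each library, and up to 4 called members of a list; a part of these is described, chosen with values known. Ubb, Lrg1, Hspd1 and Dnajb6 fall outside the rule, and some genes that it names are not reported here. Gene positions come from GENCODE vM21, whose identifiers matched 98.1% of the table, and promoters from RefSeq on GRCm38.p6. Alternatives were upper quartile and DESeq2 size factors, DESeq2 1.42.0, limma 3.58.1 (voom with sample weights), no filter, a replicate block, each library left out and the 6 h groups alone; the 6 h groups without control replicate 3 were added after seeing the data. The fit was tested on simulated data.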

Additional observations from a re-analysis of the deposited data

Results flagged for a closer look

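For 13 of the genes described that lay above 12 counts in both 6 h groups, the genotype difference at 6 h departed from that at 0 h by the interaction term (edgeR quasi-likelihood, adjusted over all genes); the values are log2 differences of differences. Toward lower, they were Dnajb1 (−4.78), Ddit3 (−4.36), Lhpp (−3.38), Oat (−3.25), Cyp2c38 (−3.20), Jun (−3.17), Pparg (−2.58), Cyp1a2 (−2.26), Cyp2e1 (−2.20), Akr1c6 (−2.11) and Ubb (−1.35). Toward higher, they were Plin5 (1.54) and Peg3 (1.52). The edgeR adjusted p ran from 0.00459 for Cyp2c38 to 0.0483 for Dnajb1 and Plin5. Slc1a2 passed as well (edgeR adjusted p = 0.0493), but it was under 12 counts in FBXL5ΔDC and has no interpretable fold. Cyp2e1, Cyp1a2, Oat, Lhpp, Cyp2c38 and Akr1c6 were below the untreated range in all 6 libraries at 6 h, controls included, and Pparg and Ubb in every FBXL5ΔDC library.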

How the results depend on the processing

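Of the 120 called genes named, none reversed in any alternative, which the choice of genes whose groups mostly did not overlap largely fixed in advance. DESeq2 called 753 genes higher and 1500 lower at 6 h, limma-voom with sample weights 1909 and 2060, the 6 h groups alone 0 and 6, and the 6 h groups without control replicate 3, chosen after seeing the data, 1455 and 1547. Leaving out 1 library gave 35 to 1873 higher and 215 to 2376 lower. The limma-voom calls were 51.9% lower, against 76.9% for edgeR. The interaction had 2 higher and 18 lower with upper quartile factors, 228 and 490 with DESeq2, 975 and 1239 with limma-voom, and 0 to 1103 higher and 2 to 1430 lower with 1 library left out. At 0 h DESeq2 called 9 higher and 7 lower, limma-voom 1 higher and the 2 groups alone 3 higher. The cause was not tested.

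Deviations from the group mean were hardly correlated between libraries of the same replicate number at 6 h (0.029, −0.06 and −0.02). These values cannot decide whether the replicates were paired, since control replicate 3 shaped the mean that its group was measured from. With the replicate block, 196 genes were higher and 547 lower at 6 h, and the interaction had 4 higher and 24 lower.

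Of 43 named genes that were not called, 7 changed sign. Fos was 1.14 with limma-voom, 1.66 in the 6 h groups without control replicate 3 and −1.24 to 1.66 with 1 library left out. Ftl1 was 0.00887 with upper quartile factors, 0.0732 with limma-voom, 0.0417 in the 6 h groups without control replicate 3 and −0.123 to 0.138 with 1 library left out. Itgax was −0.25 in the 6 h groups without control replicate 3 and −0.25 to 0.62 with 1 library left out. Gclc was −0.16 to 0.561, Srxn1 −0.0464 to 0.649, Fth1 −0.0882 to 0.455 and Dnajb6 −0.0138 to 0.148 with 1 library left out.

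The difference in mitochondrial share was 2.44 to 2.77 points with 1 library left out. Genes under 12 counts in a group have no interpretable fold. The acetaminophen dose of these mice is not stated.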
